A study of Homo sapiens with 2 samples.

Results

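The genes described are 6 that encode abundant proteins of the cytoskeleton: the cytoplasmic actins ACTB and ACTG1, the tubulins TUBA1B and TUBB, and the beta-thymosins TMSB4X and TMSB10. They were taken from the count tables by symbol, as the protein-coding entry of that name, and all 6 were found among 20298 protein-coding genes and 741078 listed features. RNA recovered with hTrmt13 (TRMT13), the human relative of a yeast tRNA methyltransferase, was sequenced by CLIP-seq, in which RNA crosslinked to a protein is isolated with an antibody against it. The cells were MDA-MB-231, an established human breast carcinoma line. The labels name no treatment and no change of genotype, and the 2 libraries, replicates 1 and 2, form 1 group. No input or control libraries were analysed here, so a level is the amount recovered and not an enrichment, and binding cannot be told apart from abundance in the cells.

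Actin polymerises into the filaments that shape the cell cortex and drive movement, and non-muscle cells make it from ACTB and ACTG1. Microtubules are built from dimers of an alpha and a beta tubulin, here TUBA1B and TUBB, and serve as tracks for transport and as the mitotic spindle. Beta-thymosins are very small proteins that bind actin monomers and so hold a pool of actin back from polymerisation. The mRNAs of all these proteins are commonly plentiful in cultured cells, and their genes have near relatives and many processed copies in the genome.

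Close relatives within each family bear on how single genes can be counted from short reads. The coding sequences of ACTB and ACTG1 in GENCODE 29 are each 1128 bases long and differ at 99 positions (91.2% identical), although the proteins are almost the same. The longest stretch without a difference is 59 bases. The first 90 coding bases are shown, 5′ to 3′, with the 17 differing bases in capitals.
ACTB: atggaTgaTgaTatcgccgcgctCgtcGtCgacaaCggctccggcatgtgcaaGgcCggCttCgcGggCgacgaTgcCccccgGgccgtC
ACTG1: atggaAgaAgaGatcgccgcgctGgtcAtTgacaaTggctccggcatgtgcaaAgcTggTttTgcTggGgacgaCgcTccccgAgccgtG
The beta-thymosin reading frames are so short that they can be shown whole, 135 bases with the stop codon. They differ at 37 positions (72.6% identical), in capitals, and the longest stretch without a difference is 10 bases.
TMSB4X: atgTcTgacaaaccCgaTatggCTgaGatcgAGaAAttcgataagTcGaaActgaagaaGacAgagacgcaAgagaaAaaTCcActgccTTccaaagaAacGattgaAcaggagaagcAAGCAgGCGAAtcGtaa
TMSB10: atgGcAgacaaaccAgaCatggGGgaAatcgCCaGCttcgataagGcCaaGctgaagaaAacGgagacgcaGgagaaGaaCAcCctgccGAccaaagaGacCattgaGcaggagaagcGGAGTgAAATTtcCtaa
The sequences show that differences between the thymosins lie every few bases, whereas the actins share longer runs. A read therefore tells the thymosins apart more readily than the actins. The alpha tubulins are closer still: TUBA1B and TUBA1A differ at 38 of 1356 coding bases (97.2% identical), with 1 identical run of 221 bases.

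Counts were tabulated apart for the 2 read mates of a library. R1 totals were 27907799 (replicate 1) and 20590398 (replicate 2), against R2 totals of 11246823 and 8793089. The libraries differed in how much of the counts lay in mRNA. Nuclear protein-coding genes that overlap no tRNA feature, 20195 genes, held 5.39% of R1 in replicate 1 and 10.6% in replicate 2. Levels are given as CPM, the counts of a gene per 1000000 counts of the library, and come from R1 where no mate is named. Nothing in the labels ties the replicates to separate cultures, so an SD over n = 2 may be technical spread only. Intervals are exact Clopper-Pearson 95% intervals. They cover counting error only, and PCR reads without molecular identifiers are not independent molecules.

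The 6 genes together held 3520 R1 counts in replicate 1 and 6514 in replicate 2. Of the counts of the 20195 protein-coding genes this was 0.234% (0.226 to 0.242%) in replicate 1 and 0.298% (0.291 to 0.305%) in replicate 2. The R2 tables gave 0.243% and 0.306%. The actins made up 74.1% of the counts of the 6 in replicate 1 and 73.7% in replicate 2, the tubulins 24.0% and 24.5%, and the thymosins 1.90% and 1.81%. The division among the families was thus nearly the same in the 2 libraries, while the share of all 6 was higher in replicate 2, with intervals that do not overlap.

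ACTG1 and ACTB were the highest of the 6. ACTG1 (ENSG00000184009.10_4), which encodes gamma-actin, spans chr17:79476997-79490873 on the minus strand of hg19. It had 1382 R1 counts in replicate 1 and 2583 in replicate 2, and 1121 and 2122 in R2. This was 49.5 CPM (46.9 to 52.2) in replicate 1 and 125 CPM (121 to 130) in replicate 2, or 87.5 ± 53.7 CPM (SD, n = 2). ACTB (ENSG00000075624.14_4), which encodes beta-actin, spans chr7:5566778-5603415, also on the minus strand. It had 1226 and 2216 R1 counts and 998 and 1807 R2 counts in replicates 1 and 2. Its level was 43.9 CPM (41.5 to 46.5) and 108 CPM (103 to 112), or 75.8 ± 45.0 CPM (SD, n = 2).

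The actin pair kept a steady ratio. ACTG1 had 1.13 times the count of ACTB in replicate 1 (1.04 to 1.22) and 1.17 times in replicate 2 (1.10 to 1.23). R2 gave 1.12 (1.03 to 1.22) and 1.17 (1.10 to 1.25). ACTG1 was the higher in all 4 tables, although R1 and R2 of a library come from the same fragments and are not separate evidence. The intervals do not cover how reads shared with copies of either actin were placed, and the pseudogene ACTBP2 had 88 and 190 R1 counts. By mean CPM, ACTG1 ranked 17 and ACTB 21 among the 20195 protein-coding genes. As the genes were chosen for being abundant, these ranks describe them and test nothing.

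The tubulins lay far apart. TUBA1B (ENSG00000123416.15_4; chr12:49521565-49525180, minus strand), an alpha tubulin of most dividing cells, had 743 and 1399 R1 counts and 604 and 1176 R2 counts. It stood at 26.6 CPM (24.7 to 28.6) in replicate 1 and 67.9 CPM (64.4 to 71.6) in replicate 2, a mean of 47.3 ± 29.2 CPM (SD, n = 2), and ranked 48. TUBB (ENSG00000196230.12_2; chr6:30687978-30693203, plus strand), a widely expressed beta tubulin, had 102 and 198 R1 counts and 99 and 163 R2 counts. It stood at 3.65 CPM (2.98 to 4.44) and 9.62 CPM (8.32 to 11.1), or 6.64 ± 4.22 CPM (SD, n = 2), and ranked 3319. TUBA1B had 7.28 times the count of TUBB in replicate 1 (5.92 to 9.05) and 7.07 times in replicate 2 (6.08 to 8.24), and the R2 tables gave 6.10 and 7.21. The products of alpha and beta tubulin genes pair in equal numbers, but the partner chain comes from several beta tubulin genes, and TUBB was not the highest of these here. The TUBB count depends on how reads shared with its copies were placed, which is not stated. TUBBP1 alone had 128 and 197 R1 counts.

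The thymosins had the lowest counts. TMSB10 (ENSG00000034510.5_2; chr2:85132749-85133799, plus strand) had 56 and 108 R1 counts and 43 and 85 R2 counts. It stood at 2.01 CPM (1.52 to 2.61) and 5.25 CPM (4.30 to 6.33), or 3.63 ± 2.29 CPM (SD, n = 2), and ranked 6218. TMSB4X (ENSG00000205542.10_2; chrX:12993227-12995346, plus strand) had 11 and 10 R1 counts and 6 and 10 R2 counts. It stood at 0.394 CPM (0.197 to 0.705) and 0.486 CPM (0.233 to 0.893), or 0.440 ± 0.0647 CPM (SD, n = 2), and ranked 13072. TMSB10 exceeded TMSB4X by 5.09 times in replicate 1 (2.64 to 10.8) and 10.8 times in replicate 2 (5.65 to 23.2). With so few TMSB4X counts the size of this ratio is poorly known, but its interval lay above 1 in all 4 tables. TMSB4X thus stood below the middle of the protein-coding genes, at percentile 35.3, although it was chosen as an abundant mRNA. How much TMSB4X mRNA these cells hold was not measured in this series.

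**Figure D1:**
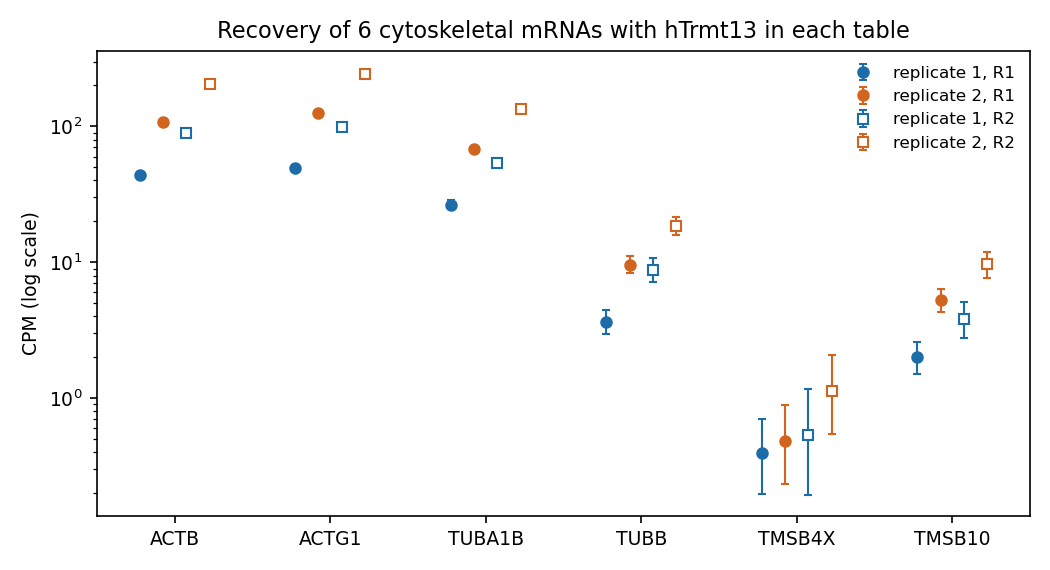
CPM (log axis) of the 6 genes in each of the 4 tables. Points are single tables and bars are exact 95% intervals. The actins lie between 43.9 and 241 CPM and TMSB4X between 0.394 and 1.14 CPM, and replicate 2 lies above replicate 1 for each gene in each mate, by little for TMSB4X in R1.

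The lengths of the genes differ greatly, and comparison of levels per length depends on which length is used. Per kilobase of the listed span, a level that counts introns as well, the order was TUBA1B (13.1 ± 8.08 CPM per kilobase), ACTG1 (6.30 ± 3.87), TMSB10 (3.45 ± 2.18), ACTB (2.07 ± 1.23), TUBB (1.27 ± 0.807) and TMSB4X (0.208 ± 0.0305; SD, n = 2 each). Per kilobase of the GENCODE 29 principal transcript, an alternative added after the data were seen, it was ACTG1 (43.5 ± 26.7), ACTB (39.4 ± 23.4), TUBA1B (29.1 ± 18.0), TMSB10 (7.31 ± 4.62), TUBB (2.49 ± 1.58) and TMSB4X (0.574 ± 0.0844). The value of ACTB rose most, from 2.07 to 39.4, because its 1921-base transcript is 5.24% of a listed span of 36638 bases. For TUBA1B the transcript is 45.0% of the span.

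The ranges of mean ± SD of neighbouring genes overlap in both orders, except for TUBB and TMSB4X, since 5 of the genes were 2.45 to 2.63 times higher by CPM in replicate 2 (TMSB4X 1.23 times). Within a library the order per kilobase of transcript can be judged by count. ACTG1 over ACTB was 1.08 in replicate 1, with an interval that included 1 (0.996 to 1.16), and 1.11 in replicate 2 (1.05 to 1.18). ACTB exceeded TUBA1B by 1.40 times (1.27 to 1.53) and 1.34 times (1.25 to 1.44), and TUBA1B exceeded TMSB10 by 4.04 times (3.08 to 5.41) and 3.95 times (3.25 to 4.85). TMSB10 exceeded TUBB by 2.96 times (2.09 to 4.13) and 2.94 times (up to 3.73), and TUBB exceeded TMSB4X by 2.66 times (1.43 to 5.50) and 5.69 times (3.03 to 12.0). On this scale the short TMSB10 transcript thus stood above TUBB, the reverse of their CPM. The intervals cover counting error only, and not how reads shared with copies of TUBB or of the other genes were placed.

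**Figure D2:**
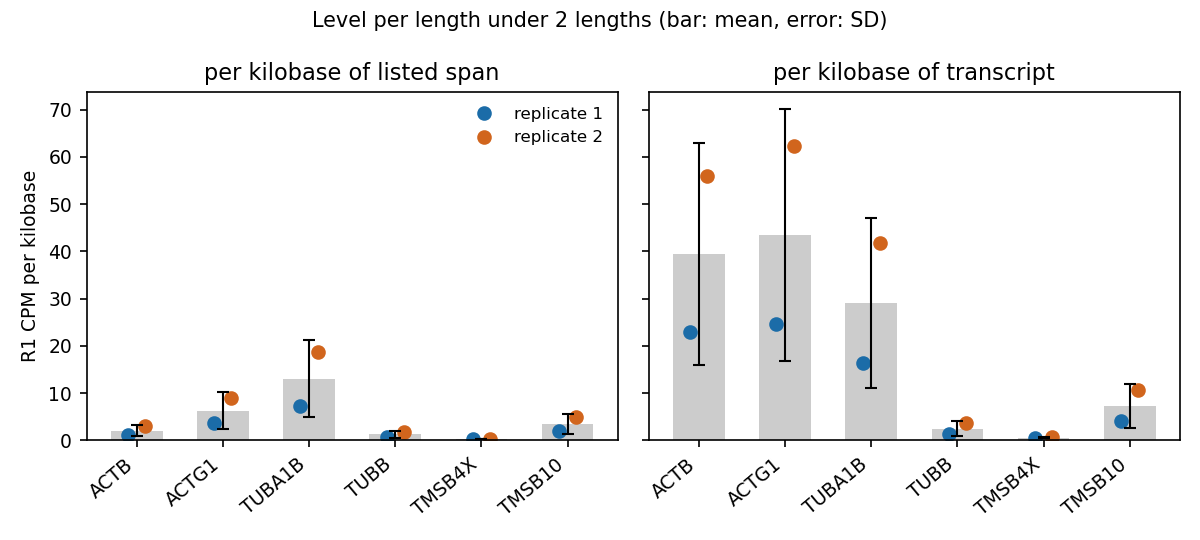
R1 CPM per kilobase for the 6 genes, by listed gene span (left) and by transcript length (right). Bars are means, error lines are SDs over 2 libraries and points are the libraries. ACTB stands at 2.07 per kilobase of span and at 39.4 per kilobase of transcript, and TMSB4X is lowest in both panels.

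By length of span the thymosins and TUBB stood higher among the protein-coding genes than by CPM. TMSB10 was at percentile 69.2 by CPM and 99.4 per kilobase of span, TUBB at 83.6 and 98.3, and TMSB4X at 35.3 and 84.8. The actins and TUBA1B were at or above percentile 99.0 on either scale. A level per kilobase of span is lower for a gene with long introns, whatever its transcript.

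Other listed features inside the actin genes show where part of the counts fell. AC006483.1, listed as a miRNA, covers 84 bases of ACTB (chr7:5567734-5567817, same strand) and had 136 R1 counts in replicate 1 and 225 in replicate 2. That equals 11.1% (9.39 to 13.0%) and 10.2% (8.93 to 11.5%) of the ACTB count, from 0.229% of its span and a length equal to 4.37% of its transcript. In ACTG1, the 84-base AC139149.1 (chr17:79478052-79478135, same strand), also listed as a miRNA, had 135 and 179 counts, or 9.77% (8.25 to 11.5%) and 6.93% (5.98 to 7.98%) of the gene. Its length equals 4.18% of the ACTG1 transcript. A read that overlaps such a feature only in part may be counted in it, and the sources do not state the overlap required. The shares in R2 were lower, 6.31% and 6.53% for ACTB and 5.26% and 6.64% for ACTG1. Whether these reads come from actin mRNA or from a separate small RNA was not tested.

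Other overlaps show where counts were scarce. The antisense feature RP13-766D20.2 shares 9801 bases with ACTG1, 70.6% of its span, and had only 2 and 4 R1 counts and 3 in each R2 table. Where reads are counted in every overlapping feature on either strand, nearly all ACTG1 counts therefore lie in the other 4076 bases. Within ACTB, the antisense CTB-161C1.1 (515 bases) had 1 and 0 R1 counts, and the processed pseudogene AC006483.5 had 0 and 1. Of 24 piRNAs listed in ACTB, only piR-hsa-23387 had a count, 1 in R2 of replicate 2.

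Features of the opposite strand overlap TUBA1B, TMSB10 and TUBB. Those across TUBA1B and TMSB10 had somewhat larger counts than the gene, and the one within TUBB had fewer. RP11-386G11.10, an antisense feature that spans all of TUBA1B, had 748 and 1422 R1 counts and 610 and 1197 R2 counts. That is 5 and 23 more than TUBA1B in R1 and 6 and 21 more in R2. Whether the counting used strand is not given, so reads of the sense and the antisense RNA cannot be told apart, and the TUBA1B count is uncertain to that extent. Counting without regard to strand would place every TUBA1B read in this feature as well, which would then hold at least the TUBA1B count. Whether the same reads were counted in both was not tested. TRABD2A, a protein-coding gene whose 85359-base span covers TMSB10 on the other strand, had 77 and 140 R1 counts, 21 and 32 more than TMSB10. The same question applies to this pair. Within TUBB, the antisense XXbac-BPG252P9.9 covers 14.8% of the span and had 36 and 78 R1 counts, equal to 35.3% (26.1 to 45.4%) and 39.4% (32.5 to 46.6%) of the TUBB count. No other listed feature overlaps TMSB4X, and no tRNA feature overlaps any of the 6 genes.

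**Figure D3:**
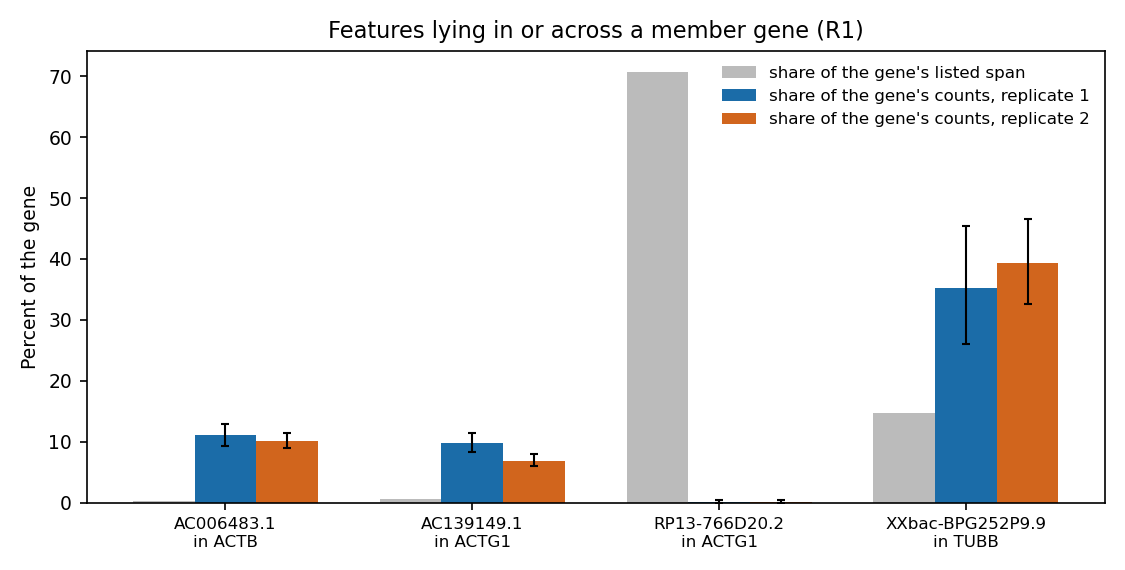
Share of a gene's listed span (grey) and of its R1 counts in each replicate (blue and orange, with exact 95% intervals) that lie in 4 features inside or across it. The 84-base features in the actins hold 6.93% to 11.1% of the counts in under 1% of the span. Their length equals 4.37% (ACTB) and 4.18% (ACTG1) of the transcript, which is not drawn. RP13-766D20.2 holds 2 and 4 counts in 70.6% of the span of ACTG1.

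Copies of these genes elsewhere in the genome also had counts, and the placement of reads with several matches is not stated in the sources. TUBBP1, a transcribed pseudogene of TUBB, had 128 R1 counts in replicate 1 and 197 in replicate 2, against 102 and 198 for TUBB itself, and 110 and 178 R2 counts. TUBBP5 had 39 and 54 R1 counts. The actin pseudogenes listed under their parent's symbol were low beside it. ACTG1P9 had 36 and 86 R1 counts (2.60% and 3.33% of ACTG1), ACTBP9 had 20 and 43, and ACTG1P1 had 10 and 22. Some copies listed under clone names had higher counts. ACTBP2 (CTD-2309M13.1) had 88 and 190 R1 counts and TUBBP2 (RP11-396A22.4) had 66 and 117. TUBAP2 (RP11-121L10.3), which shares sequence with TUBA1B, had 138 and 308. TMSB4XP4 had 1 and 2.

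TUBA1B shares the most sequence with other genes. Of all 30-base stretches of its GENCODE 29 transcript, 72.8% also occur in a transcript of another gene, and 62.7% of 50-base stretches do. TUBA1A shares 50.6% of the 30-base stretches and TUBA1C 50.3%. The shares of 30-base stretches were 36.7% for TMSB4X, 32.6% for TUBB, 29.9% for ACTB, 21.4% for ACTG1 and 6.42% for TMSB10. With 50 bases they fell to 22.4%, 18.2%, 10.3% and 4.03%, and TMSB10 again had the lowest. TUBBP1 alone shares 27.8% of the 30-base stretches of TUBB. By these shares TUBA1B has the most sequence in common with other genes and TMSB10 the least.

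Within the lists of their relatives the chosen actins and TUBA1B were the highest by CPM. TUBB was not, and TMSB10 was the highest beta-thymosin, below PTMA and PTMS on that list. The 5 other actins in the tables were low, led by ACTA2, the smooth muscle alpha-actin, with 24 and 28 R1 counts (1.11 ± 0.353 CPM; SD, n = 2). ACTA1, the skeletal muscle actin, had 3 and 9. Among 20 other tubulins, TUBA1C stood at 26.5 ± 14.4 CPM, TUBB4B at 15.1 ± 9.37, TUBA1A at 8.33 ± 5.25 and TUBB6 at 7.65 ± 4.64 CPM (SD, n = 2 each). TUBB4B, another beta tubulin, had 236 and 447 counts and exceeded TUBB in both libraries, and TUBB6 had 122 and 225. How reads shared with copies of TUBB were placed is not stated, which leaves its order among the beta tubulins uncertain. The 4 other genes of the thymosin list were PTMA, a nuclear acidic protein unrelated to beta-thymosins in sequence, at 14.4 ± 7.81 CPM, its relative PTMS at 4.53 ± 3.01, TMSB15B at 1.40 ± 0.766 and TMSB15A at 0.400 ± 0.464 CPM. Of these relatives, 1 actin, 15 tubulins and 3 thymosins averaged 10 R1 counts or more, and 0 passed the exact binomial test of replicate 2 against replicate 1 (at an unadjusted p under 0.05, 1 tubulin was higher and 1 lower in replicate 2). Of the 13120 nuclear protein-coding genes tested, 2.38% passed as higher and 2.57% as lower, and 1059 were higher and 990 lower at an unadjusted p under 0.05.

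**Figure D4:**
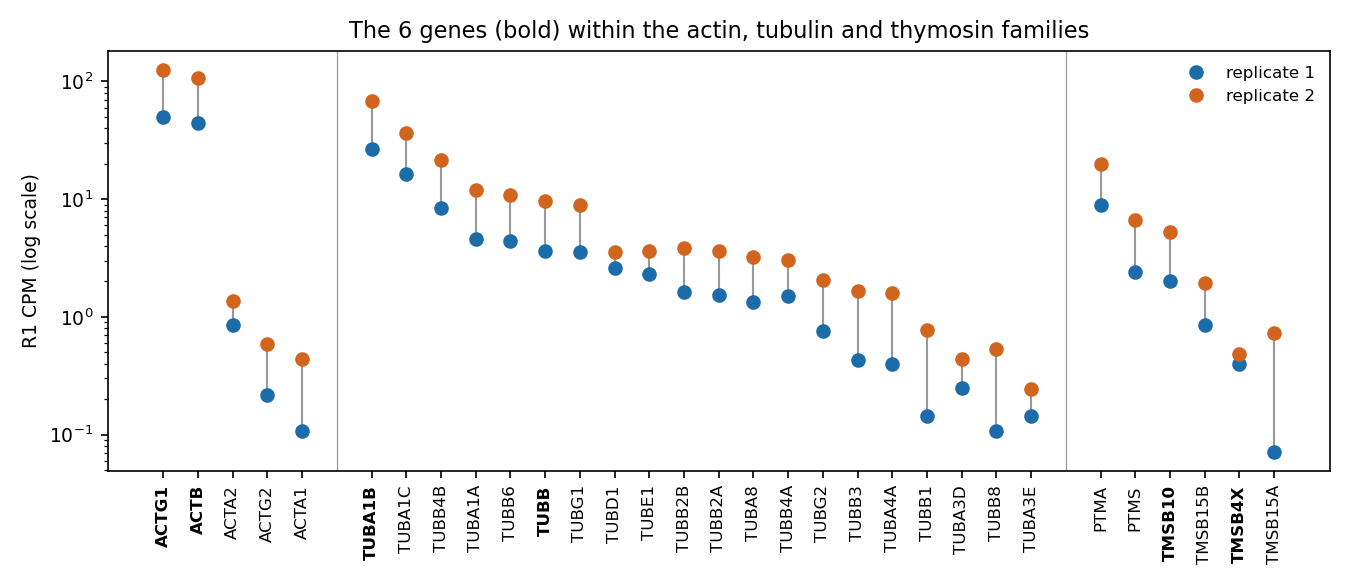
R1 CPM (log axis) of the 6 genes, in bold, and the genes of the other actin, tubulin and thymosin lists with a count in both libraries. Points are replicate 1 (blue) and replicate 2 (orange). ACTG1 and ACTB stand far above the other actins, and TUBA1B leads the tubulins. TUBB lies below TUBB4B and slightly below TUBB6, with no intervals drawn. By mean, TMSB4X and TMSB15A stand lowest in the thymosin group, which also holds PTMA and PTMS.

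The 2 libraries were compared by the split of each feature's R1 counts between them, with an exact two-sided binomial test against the ratio of library sizes scaled by TMM, which sets the bulk of features to no change. Benjamini-Hochberg adjustment ran over the 18723 features whose R1 counts averaged 10 or more. The test compares 1 library with 1 other, not conditions, and covers counting error only. By raw count, replicate 2 over replicate 1 was 1.81 for ACTB, 1.87 for ACTG1, 1.88 for TUBA1B, 1.94 for TUBB, 1.93 for TMSB10 and 0.909 for TMSB4X. All but TMSB4X thus had nearly equal ratios.

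After TMM scaling, 3 of the 6 genes passed the test at an adjusted p of 0.05, all higher in replicate 2. ACTG1 had a log2 ratio of 0.25 (95% interval 0.15 to 0.34; adjusted p = 4.86e-06, exact binomial test), ACTB 0.20 (0.10 to 0.30; adjusted p = 0.00175) and TUBA1B 0.26 (0.13 to 0.39; adjusted p = 0.00132). TUBB had a log2 ratio of 0.30 (-0.05 to 0.66; adjusted p = 0.357, exact binomial test) and TMSB10 of 0.29 (-0.18 to 0.79; adjusted p = 0.588), which did not pass. TMSB4X had -0.79 (-2.18 to 0.58; adjusted p = 0.621, exact binomial test), and its interval is too wide for a direction at this depth.

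These ratios must be read against how often other genes pass. Of all 18723 features, 2.29% passed as higher in replicate 2 and 6.52% as lower. The 13120 nuclear protein-coding genes outside tRNA features (2.38% higher, 2.57% lower) had a median log2 ratio of 0.02. Small ratios pass more readily at high counts: of 326 such genes with a mean count of at least 500, a limit set with the data in view, 18.1% passed as higher and 18.1% as lower. Their central range from the 25th to the 75th percentile ran from -0.15 to 0.18 and from the 5th to the 95th from -0.79 to 0.35. ACTB lay at percentile 79.9 of these ratios, ACTG1 at 86.7 and TUBA1B at 87.3, above the central range but within the spread of genes of like count.

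**Figure D5:**
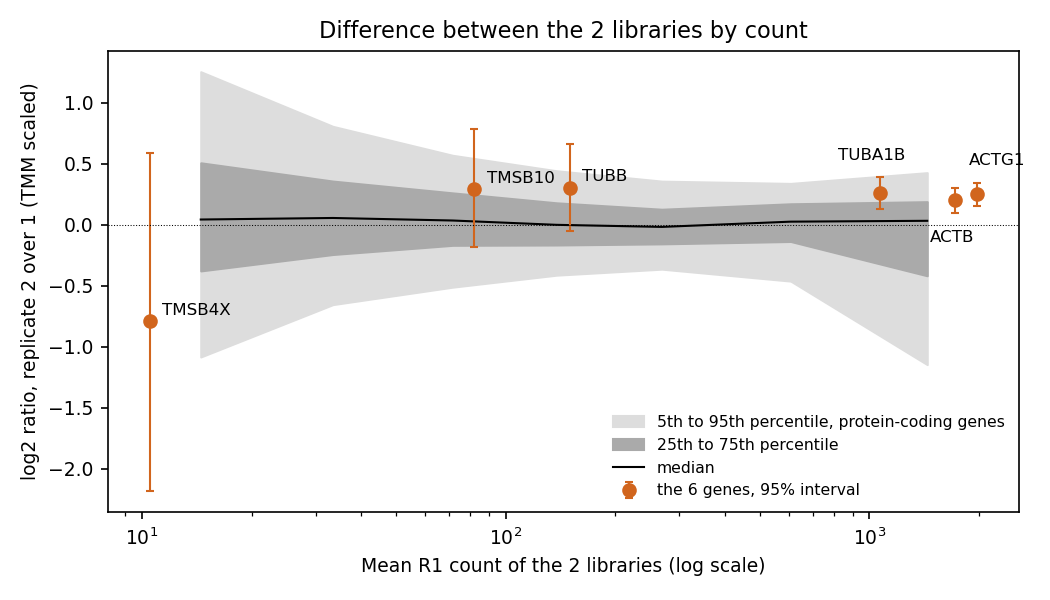
log2 ratio of replicate 2 over replicate 1 after TMM scaling against mean R1 count (log axis). Orange points are the 6 genes with 95% counting intervals, the line is the median of protein-coding genes by count class and the bands are their 25th to 75th and 5th to 95th percentiles. ACTB, ACTG1 and TUBA1B lie at 0.20 to 0.26, above the inner band, and the interval of TMSB4X runs from -2.18 to 0.58.

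The size of these ratios, and the sign for TMSB4X, depend on what the libraries are scaled to. Scaled to total counts, every feature shifts by 1.09 on the log2 scale, and ACTB, ACTG1, TUBA1B, TUBB, TMSB10 and TMSB4X had log2 ratios of 1.29, 1.34, 1.35, 1.40, 1.39 and 0.30. The median of the protein-coding genes was then 1.11. Relative to other protein-coding genes, by contrast, the differences were small. With CPM taken over the counts of the 20195 protein-coding genes only, ACTB stood at 816 CPM in replicate 1 and 1014 in replicate 2, and ACTG1 at 919 and 1181. TUBA1B stood at 494 and 640, TUBB at 67.8 and 90.6, TMSB10 at 37.2 and 49.4, and TMSB4X at 7.32 and 4.57.

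The mates differed little for these genes compared with the libraries as a whole. The R2 count of ACTB was 81.4% of its R1 count in replicate 1 and 81.5% in replicate 2, that of ACTG1 81.1% and 82.2%, and that of TUBA1B 81.3% and 84.1%. TUBB stood at 97.1% and 82.3% and TMSB10 at 76.8% and 78.7%, and TMSB4X, with at most 11 counts a table, at 54.5% and 100%. The library totals of R2 were 40.3% and 42.7% of those of R1. The medians of the protein-coding genes were 87.9% in replicate 1 (25th to 75th percentile 82.9 to 92.6%) and 84.7% in replicate 2 (80.2 to 88.8%). The actins lay just under the lower quartile in replicate 1 and within the range in replicate 2.

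The protein-coding genes nearest in level to each of the 6, by Euclidean distance of log2(CPM + 0.5) over the 4 tables, were of many kinds. Nearest to ACTB were SRRM2 (distance 0.096) and FASN (0.105), to ACTG1 HUWE1 (0.331) and ENO1 (0.352), and to TUBA1B EIF4G2 (0.144). Nearest to TUBB were DCAF12 (0.067) and DESI1 (0.075), to TMSB10 NSUN4 (0.016) and ISY1-RAB43 (0.072), and to TMSB4X ZNF404 (0.139) and MAP6 (0.180). Several of these have far longer spans than the gene they resemble: HUWE1 spans 154.6 kilobases against 13.9 for ACTG1. The likeness is over 4 tables from 2 libraries and follows level and depth.

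Genes that act on actin were lower than actin itself. Over 17 genes of actin binding and turnover the median was 6.38 CPM, against 1.48 CPM for all 20195 protein-coding genes and 27.0 for the 6 genes. CFL1, which severs filaments, stood at 17.3 ± 8.16 CPM, PFN1, a monomer-binding protein, at 15.5 ± 8.53, and CAPZB, which caps filament ends, at 12.4 ± 5.56 (SD, n = 2 each). In this list only CAPG, a capping protein named after its value was seen, passed the binomial test, as lower in replicate 2 (20 and 10 counts, log2 ratio -1.62). At an unadjusted p under 0.05, 0 genes of the list were higher and 2 lower. The 9 genes of the Arp2/3 complex, which starts branched filaments, had a median of 3.57 CPM, led by ACTR2 at 12.5 ± 6.11, ARPC2 at 8.10 ± 4.62, which overlaps a tRNA feature, and ACTR3 at 7.46 ± 3.87 CPM, and 0 passed in the binomial test (1 was higher at an unadjusted p under 0.05). Of 21 crosslinking and motor genes (median 11.2 CPM), FLNA, a filament crosslinker, stood at 32.2 ± 21.2 CPM and was the 1 that passed, as higher in replicate 2 (481 and 971 counts, log2 ratio 0.36, adjusted p = 0.000142, exact binomial test). The non-muscle myosins MYH9 and MYH10 followed at 32.1 ± 18.8 and 25.6 ± 14.3 CPM. At an unadjusted p under 0.05, 3 genes of this last list were higher and 0 lower. Among all 13120 nuclear protein-coding genes tested, 2.38% passed as higher and 2.57% as lower, and 1059 and 990 were under that unadjusted p.

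Genes that act on microtubules, and those that fold tubulin and actin, also lay below TUBA1B in median. The 15 microtubule regulators had a median of 14.3 CPM, led by DYNC1H1, the dynein heavy chain, at 64.8 ± 34.4 CPM, CKAP5 at 26.1 ± 14.1 and MAP4 at 23.3 ± 10.4 (SD, n = 2 each). CLASP1, chosen for naming after its value was seen, was the 1 that passed, as lower in replicate 2 (422 and 528 counts, log2 ratio -0.33). At an unadjusted p under 0.05, 3 of the regulators were higher and 1 lower. The 19 genes that fold actin and tubulin, mostly subunits of the CCT chaperonin and tubulin cofactors, had a median of 10.6 CPM. CCT3 stood at 27.0 ± 17.2 CPM, CCT7 at 20.4 ± 10.9 and CCT4 at 19.7 ± 9.99, and CCT3 was the 1 that passed, as higher (414 and 806 counts, log2 ratio 0.31, adjusted p = 0.00651, exact binomial test). At an unadjusted p under 0.05, 2 folding genes were higher and 0 lower. Among all 13120 nuclear protein-coding genes tested, 2.38% passed as higher and 2.57% as lower, and 1059 and 990 were under that unadjusted p. The span lengths of these lists differ, and per kilobase of span their medians were 0.192 for microtubule regulators, 0.458 for folding genes and 0.169 for actin binding, against 2.76 for the 6 genes and 0.0445 for all. Transcription factors that drive actin genes, MKL1 (13.3 ± 6.46 CPM), MKL2 (10.7 ± 4.04) and SRF (3.50 ± 1.85), had 0 calls in the binomial test (1 was lower at an unadjusted p under 0.05).

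Other abundant mRNAs gave a measure of what is usual. The 77 cytosolic ribosomal protein genes had a median of 9.63 CPM and 1.61 CPM per kilobase of span, and 21 passed the binomial test as higher in replicate 2 and 0 as lower (43 and 1 at an unadjusted p under 0.05), with a median log2 ratio of 0.30. Among all 13120 protein-coding genes tested, 2.38% passed as higher and 2.57% as lower, and 1059 and 990 were under that unadjusted p. RPS2 stood at 47.4 ± 27.1 CPM, RPS4X at 45.1 ± 28.4 and RPL3 at 39.7 ± 23.0. The 17 glycolytic genes had a median of 22.1 CPM, and ENO1, GAPDH, ALDOA and PKM passed as higher and 0 as lower (6 and 0 at an unadjusted p under 0.05), with a median log2 ratio of 0.12. Of protein-coding genes with a mean count of at least 500, as these 4 have, 18.1% passed as higher. ENO1 stood at 80.3 ± 46.9 CPM, GAPDH at 64.1 ± 38.0 and ALDOA at 62.4 ± 36.1 (SD, n = 2 each). The median log2 ratio of the 6 genes was 0.25, between those of the 2 lists, and the lists were not compared by a test.

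Marker lists were used to place the cells. VIM, a mesenchymal intermediate filament, stood at 24.4 ± 15.1 CPM, FN1 at 3.56 CPM (40 and 117 counts) and SPARC at 1.21 ± 0.491 CPM. The median of the 5 mesenchymal markers was 1.21 CPM, with AXL at 16 and 12 counts and CD44, commonly high in this line, at 12 and 7. The 5 epithelial breast markers had a median of 1.01 CPM, led by CDH1 at 1.96 ± 0.738 CPM, so these lists did not separate the line by level in this assay. Of the 5 muscle markers, DES and TNNT2 had 0 counts in every table, which allows up to 0.107 CPM in R1 of replicate 1 and 0.146 in replicate 2. MYH7 had 1 and 0 R1 counts, ACTC1 0 and 2, and ACTA1 3 and 9, and the list summed to 0.143 CPM in replicate 1 and 0.534 in replicate 2. The 8 blood, liver and neuron markers had a median of 0.341 CPM, led by SYT1 at 7.88 ± 3.69 CPM over a span of 588.0 kilobases. Their part in the levels of the 6 genes was not tested.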

How the data were processed

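CLIP-seq of hTrmt13 from MDA-MB-231 cells was analysed, 1 group of 2 libraries. The authors deposited raw read counts of genes and other features, 1 table per read mate and 4 in all. The tools named are Bowtie2 2.3.5.1 and bedtools 2.24.0, with the build hg19 (GRCh37), per the submitters' processing notes. For alignment options, strand use, the overlap rule and reads with several matches, the settings were not given in the sources used here. After 13 repeated lines were dropped, 741078 features remained. Positions are 1-based, as listed, and no hg19 annotation was used, so exons and UTRs are not given.

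CPM, shares and ratios were computed with Python 3.11.15, numpy 2.4.6, pandas 2.3.3 and scipy 1.17.1, and TMM factors with edgeR 4.0.16 in R 4.3.3 (DESeq2 1.42.0 size factors as an alternative). Figures were drawn with matplotlib 3.10.9. edgeR's quasi-likelihood test needs groups to compare and was not run. Features with a mean R1 count of at least 10 entered the binomial test, which was tested on simulated counts with counting error only. There it called 64% of 2-fold changes, 94% of 4-fold changes and 0.0216% of unchanged features. A gene that did not pass may thus still differ. A prior count of 0.5 was added only for log2 levels and log2 ratios of other genes. Transcript lengths and coding sequences are from GENCODE 29 (GRCh38), whose gene spans equal those in the tables in length for all 6 genes. For each gene the longest transcript marked as principal and holding a consensus coding sequence was used. The 6 genes and all gene lists were chosen with earlier results of these data known.

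Genes named are the 6, listed copies with a mean count of at least 10 (1 of them, on the Y chromosome, is left out) or the 5 highest, the 3 highest of each list, the 2 nearest genes of each of the 6 (1 for TUBA1B, the other not being reported here), and overlapping features with a count. Copies were found by the symbol of their parent, so ACTBP2, TUBAP2 and TUBBP2, listed under clone names, lie outside this rule. TMSB4XP4, TUBB6, TMSB15A, PKM, the marker genes below the 3 highest, CAPG and CLASP1 also lie outside it or were named after their values were seen.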

Additional observations from a re-analysis of the deposited data

How the results depend on the processing

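No paired analysis was possible because the series has 1 group only. The median level of the 6 genes was 27.0 CPM. It was 53.7 CPM in R2, 323 CPM with nuclear protein-coding counts as the total, 2.76 per kilobase of span, 18.2 per kilobase of transcript and 47.3 CPM with TMSB4X left out, the last 2 added after the data were seen. With either library left out it ranged from 15.1 to 38.8 CPM, a move that is under 1 SD by construction. The median percentile among protein-coding genes went from 91.7 to 99.2 per kilobase of span. The count of the 6 genes that departed from the library ratio was 3 under TMM, DESeq2 size factors, the protein-coding total, lower count minimums, R2 and the sum of mates, and 5 under total counts, all but TMSB4X. TMSB4X fell under the count minimum in R2 and was not tested there. Over all features, 1648 departed, 15491 under total counts and 3736 with mates summed. Higher in replicate 2 were 428, against 15221 under total counts, 998 under the protein-coding total, 267 in R2 and 1453 with mates summed. Lower were 1220, against 270 under total counts and 2283 with mates summed. Apart from the change of scale each setting makes, the cause was not tested. Of values for single genes and lists, 120 stayed within 1 SD or on the same side of the threshold and 66 moved, and 2 (TUBB and TMSB10 under total counts) newly passed. This tally is no measure of how stable the values are. With n = 2, leaving out a library moves a gene's mean by under 1 SD by construction. Levels per kilobase or per protein-coding total change the unit. Depth limits TMSB4X most: 10 or 11 R1 counts leave the direction of its ratio between libraries undetermined.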
